A study of Mus musculus with 6 samples.

Results

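Guidance genes of the semaphorin, ephrin, Slit and netrin systems were followed in whole mouse hearts at embryonic day 13.5. They were taken by name alone, as every row of the count table whose symbol denotes a semaphorin of class 3 to 7, a plexin, an Eph receptor, an ephrin, a Slit, a Robo, a numbered netrin or an Unc5 receptor. This selected 67 of 45792 gene rows, made up of 20 semaphorins, 9 plexins, 8 ephrins, 14 Eph receptors, 7 Slits and Robos, 7 netrins and Unc5 receptors, and 2 antisense transcripts of the Plxna4 locus. The study compared 3 hearts labelled wild-type with 3 hearts labelled Tie2Cre INO80 flox/flox, a genotype in which exon 6 of Ino80, the gene of a chromatin remodelling ATPase, is flanked by loxP sites. The Tie2Cre transgene drives recombination in endothelial cells, the endocardium among them, and in cells that descend from them, so cells outside these lineages keep the gene. Whether blood cells in these hearts had lost it was not tested. All 6 hearts carry the strain label C57BL/6 and the same age, whereas the methods describe mixed backgrounds for the transgenic mice and count every genotype other than Tie2Cre;Ino80 fl/fl as control.

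Guidance cues were first described in growing axons, and endothelial tip cells, cardiac neural crest cells and cushion mesenchyme use the same ligands and receptors. Secreted class 3 semaphorins act through neuropilins and plexins, while ephrins are membrane-bound and signal in both directions on contact with Eph receptors. Slits bind Robo receptors and netrins bind Unc5 and Dcc family receptors, and both systems are known to restrain or steer sprouting vessels. Arterial endothelium is marked by ephrin-B2 and venous endothelium by its receptor EphB4.

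Between 28948836 and 89675692 reads were counted per heart, and 17125 genes passed the filter on low counts. Levels are given as counts per M counts (CPM) after TMM scaling, and log2 fold changes are positive where mutant-labelled hearts were higher. Values per heart are given in the order of replicates 1 to 3, for the control-labelled hearts first and the mutant-labelled hearts second. The genes that passed were compared by the quasi-likelihood test of edgeR, whose p-values, adjusted over all of them by the Benjamini-Hochberg method, are the adjusted p given below unless DESeq2 is named. Standard errors (SE) and 95% confidence intervals are those of the log2 fold change. Ino80 counts over the whole gene did not separate the groups (30.2, 31.6 and 32.7 CPM in control-labelled and 36.5, 33.7 and 31.8 CPM in mutant-labelled hearts), so groups are named by their labels. These counts include cells outside the Tie2Cre lineages. By quantitative PCR, the study found no detectable Ino80 mRNA in endothelial cells isolated from mutant hearts at a later embryonic day. Markers of coronary and capillary endothelium summed to between 400.0 and 638 CPM in control-labelled hearts and between 296 and 320.4 CPM in mutant-labelled hearts, and all 7 of 7 were fitted lower, 5 of them at an unadjusted p under 0.05. Red cell markers ranged from 8794 to 39191 CPM and from 5534 to 10183 CPM respectively, whereas 10 endothelial markers, Pecam1 and Cdh5 among them, summed to between 881 and 1091 CPM and between 970.0 and 1020.5 CPM. The defining cardiomyocyte markers were high in all 6 hearts, and liver and lung markers summed to under 2 CPM in each. Y chromosome transcripts were present in 2 control-labelled hearts and 1 mutant-labelled heart. The design text calls the hearts biological replicates. The study's methods state that controls came from the same litters as the mutants, and the labels do not tie single hearts to litters.

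Of the 67 guidance genes, 57 passed the filter on low counts. The other 10 were Epha6, Epha8, Epha10, Robo3, Slit1, Efna3, Ntn5, Sema4f and both Plxna4 antisense transcripts, with no more than 70 counts each over the 6 hearts together. After filtering, 41 guidance genes were fitted higher and 16 lower in mutant-labelled hearts, so 71.9% were fitted higher, beside 49.7% of all tested genes. Their median log2 fold change was 0.17, beside -0.0017 for all tested genes. At an adjusted p under 0.05, 0 guidance genes were called higher and 0 lower, as for all tested genes (0% and 0%), and the smallest adjusted p was 0.084 for a guidance gene and 0.053 for any gene. At an unadjusted p under 0.05, 14 guidance genes were higher and 3 lower (24.6% and 5.26%), where 9.48% of all tested genes were higher and 9.98% lower. The groups did not overlap for 14 guidance genes that were higher and 2 that were lower, where 14.3% and 12.8% of all tested genes showed no overlap in these directions.

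DESeq2, the tool named in the study's methods and run here on the same counts, called 4 guidance genes higher (Epha3, Efna2, Plxna3 and Unc5c) and 2 lower (Ntn4 and Sema6b) at an adjusted p under 0.05, out of 56 that it gave an adjusted p. Over all genes it called 2.73% higher and 3.5% lower. Calls with edgeR depended on control replicate 1. Without it, edgeR called Epha3, Efna2, Unc5c and Plxnc1 higher and Ntn4 and Sema7a lower, where 1.85% of all genes tested without that heart were called higher and 2.49% lower. When any other heart was left out, edgeR called 0 guidance genes, and between 4 and 10 were higher at an unadjusted p under 0.05. For those fits, the share of all genes at that p was not computed. Control replicate 1 was the control-labelled heart nearest to the mutant-labelled mean for 37 of the 57 tested guidance genes (64.9%), beside 43.4% of all tested genes.

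**Figure D1:**
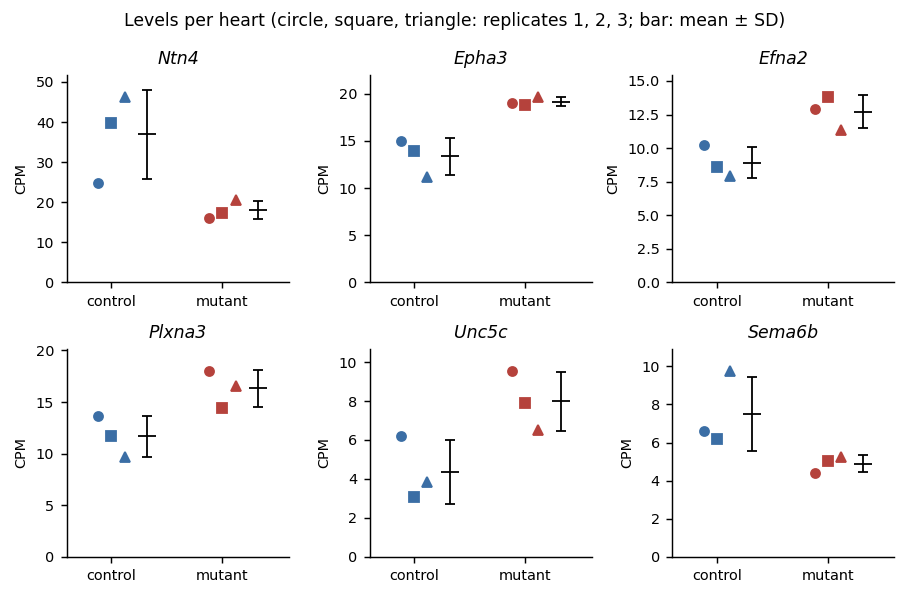
Level (CPM, y axes from 0) of the 6 guidance genes that DESeq2 called, in control and mutant hearts (x axes), with a symbol for each of 3 replicates and bars for the mean ± SD. Control and mutant hearts do not overlap in any panel, and the gap is smallest for Unc5c, at 6.23 against 6.53 CPM.

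**Figure D2:**
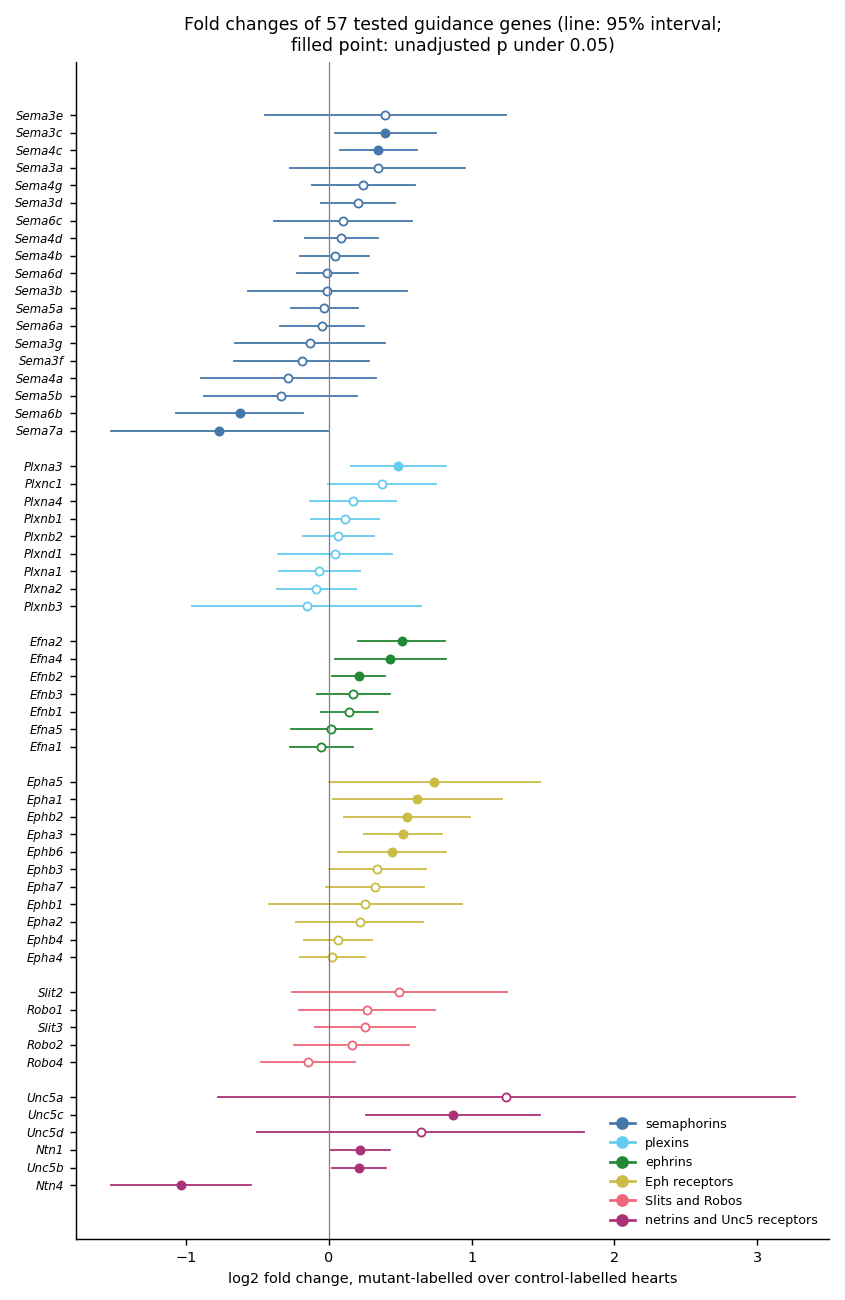
Log2 fold change of each of the 57 tested guidance genes, mutant-labelled over control-labelled hearts (x axis), ordered by family on the y axis, with lines for 95% confidence intervals and filled points for an unadjusted p under 0.05. All 11 Eph receptors sit to the right of 0, semaphorins lie on both sides of it, and Ntn4 is the member farthest to the left at -1.04.

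Among receptors, 23 of 27 tested genes were fitted higher and 4 lower, with 8 higher and 0 lower below an unadjusted p of 0.05 and a median log2 fold change of 0.25. Among ligands, 18 of 30 were fitted higher and 12 lower, with 6 higher and 3 lower below that p and a median of 0.09. Below that p were 29.6% and 0% of receptors and 20% and 10% of ligands, higher and lower respectively. Of all tested genes, 49.7% were fitted higher, and 9.48% were higher and 9.98% lower below that p. Control replicate 1 was nearest to the mutant-labelled mean for 70.4% of receptors and 60% of ligands, beside 43.4% of all tested genes. By family the median log2 fold change was 0.34 for Eph receptors, 0.17 for ephrins, 0.07 for plexins, -0.01 for semaphorins, 0.25 for Slits and Robos and 0.43 for netrins and Unc5 receptors. The last median lies midway between Ntn1 (0.22) and Unc5d (0.64), and Unc5d had only 2 to 34 counts per heart. Whether receptors differ from ligands, or families from each other, was not tested. In whole hearts, fewer cells of a type and less RNA per cell cannot be told apart.

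The 250 bases before the RefSeq start (GRCm38.p6) are shown for the 4 of the 6 genes called by DESeq2 whose RefSeq start lies at the outer end of the annotated gene, because they show how rich in CpG dinucleotides the promoters of the called genes are. Each is given 5′ to 3′ on the strand of the gene, with CpG dinucleotides in capitals.
Epha3 (chr16:63864176-63864425, minus strand): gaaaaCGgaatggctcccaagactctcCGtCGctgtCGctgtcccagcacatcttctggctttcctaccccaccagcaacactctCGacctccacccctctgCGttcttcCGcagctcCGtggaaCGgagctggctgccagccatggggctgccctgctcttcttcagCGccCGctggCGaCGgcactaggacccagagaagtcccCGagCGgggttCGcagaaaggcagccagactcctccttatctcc
Efna2 (chr10:80179232-80179481, plus strand): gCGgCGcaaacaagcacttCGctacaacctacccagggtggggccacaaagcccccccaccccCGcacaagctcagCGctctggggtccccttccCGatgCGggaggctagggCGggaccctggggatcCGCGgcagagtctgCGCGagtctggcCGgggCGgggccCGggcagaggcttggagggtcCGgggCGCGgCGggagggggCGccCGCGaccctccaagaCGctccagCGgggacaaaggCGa
Plxna3 (chrX:74328816-74329065, plus strand): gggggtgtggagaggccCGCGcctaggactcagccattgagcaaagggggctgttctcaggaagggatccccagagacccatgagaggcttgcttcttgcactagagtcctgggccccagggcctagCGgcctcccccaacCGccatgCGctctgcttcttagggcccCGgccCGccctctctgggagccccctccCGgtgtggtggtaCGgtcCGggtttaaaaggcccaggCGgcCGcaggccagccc
Sema6b (chr17:56140344-56140593, minus strand): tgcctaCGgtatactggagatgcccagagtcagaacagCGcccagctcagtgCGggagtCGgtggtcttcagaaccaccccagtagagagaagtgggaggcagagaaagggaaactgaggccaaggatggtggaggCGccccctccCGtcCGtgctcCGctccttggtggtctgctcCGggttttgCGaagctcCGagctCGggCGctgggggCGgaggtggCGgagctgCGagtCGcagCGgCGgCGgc

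These windows held 16, 25, 12 and 20 CpG dinucleotides. RefSeq promoter windows were matched for 56 of the 67 guidance genes, some with several starts, and their 72 windows held a median of 15.5 CpG dinucleotides, beside 6 in all 32851 windows of the table. Both strands of the windows were searched for 10 short words. The 4 E2F-type words TTTCCCGC, TTTGGCGC, TTTCGCGC and TTTGCCGC were in 0 of the 72 windows, and in 0.895%, 0.417%, 0.256% and 0.338% of all windows. TTCCCGCC, which overlaps the first of these in its letters and can be read as E2F-type as well, was in 2 of the 72 windows. That was 2.78% of them, beside 1.86% of all windows. The ETS-type words CCGGAAGT and ACAGGAAG were in 0 and 3 (2.88% and 2.9% of all windows). The GC box GGGCGGGG was in 30 windows, or 41.7%, beside 16.1% of all windows, the E-box CACGTG in 4 (6.02% of all windows) and TATAAA in 2 (12.4% of all windows). These counts describe letters in the windows and were not tested.

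Levels can be compared between genes only per length, and per kilobase (kb) of exon 42 tested guidance genes were at 1 CPM or more on average over the 6 hearts. The highest were Efnb3, a transmembrane ephrin, at 46.6 CPM per kb and Plxnd1, the plexin of endothelial cells, at 45.7 CPM per kb. Ntn1, the founding netrin ligand, followed at 38.6 CPM per kb, and Plxnb2, a plexin for class 4 semaphorins, at 34.2 CPM per kb. Ephb4 stood at 30.9 and Unc5b, an endothelial netrin receptor, at 24 CPM per kb, and 9 genes in all reached 10 CPM per kb. Ranges of neighbours in this order overlapped over the hearts from Efnb3 down to Unc5b, and Plxnd1 alone spanned 33.6 to 57.7 CPM per kb. At the low end, 15 tested guidance genes were under 1 CPM per kb, including Epha5, Unc5d, Plxnb3 and Sema3e.

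**Figure D3:**
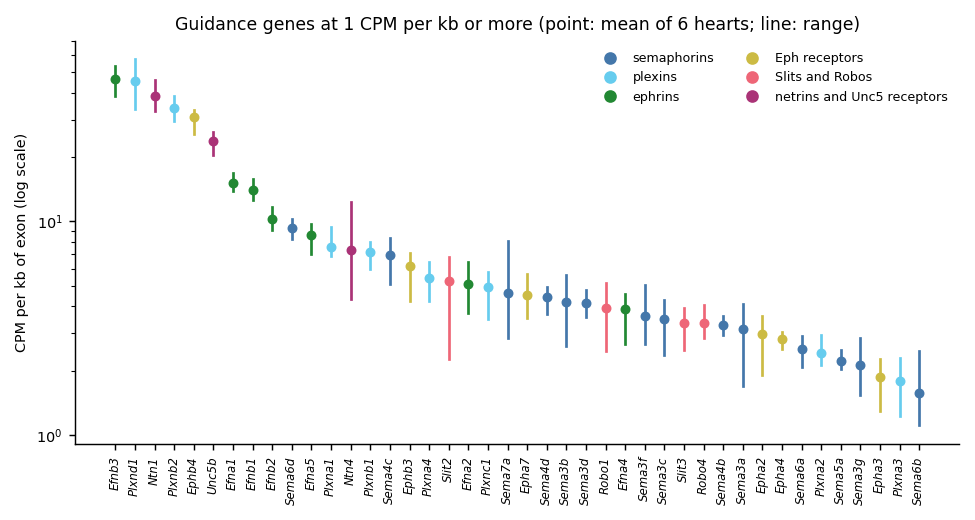
Level of the 42 guidance genes at 1 CPM per kb of exon or more, on a log scale (y axis), by gene (x axis), with points for the mean of the 6 hearts, lines from the lowest to the highest heart and colours for families. Efnb3 and Plxnd1 lead at 46.6 and 45.7 CPM per kb, and the line of Ntn4 spans control and mutant hearts that do not overlap.

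The guidance gene with the largest fitted decrease was Ntn4, a secreted netrin found in vascular basement membranes (ENSMUSG00000020019.4, chromosome 10 of GRCm38 from 93640681 to 93747207). Its level was 24.7, 39.7 and 46.3 CPM in control-labelled and 16.2, 17.4 and 20.4 CPM in mutant-labelled hearts. All 3 mutant-labelled hearts were below all 3 control-labelled hearts, and control replicate 1 lay closest to them. The means were 36.9 ± 11.1 and 18 ± 2.19 CPM (SD, n = 3 each), and the log2 fold change was -1.04 (SE 0.21, interval -1.53 to -0.55, adjusted p = 0.084). The adjusted p from DESeq2 was 6.2e-05, and without control replicate 1 the edgeR log2 fold change was -1.26 with an adjusted p of 0.0061. Like Ntn4, the coronary and capillary list and the red cell list had lower means in mutant-labelled hearts and were lowest in replicate 1 among control-labelled hearts. These traits were not particular to them. Cardiomyocyte markers shared both, at 17977, 20167 and 22076 CPM in control-labelled hearts, with means of 20073 and 18826 CPM. So did the lists for smooth muscle and pericytes, for neural crest, glial and neuronal cells, for liver, and for lung and foregut. Of 7 smooth muscle and pericyte markers, 5 were fitted lower and 2 higher, and the list summed to between 1363 and 1622 CPM in control-labelled hearts and between 1270.4 and 1483 CPM in mutant-labelled hearts. Within it, picked after its values were seen, the pericyte marker Rgs5 was at 44.2, 99.95 and 100.8 CPM and 12.8, 11.05 and 16.1 CPM (log2 fold change -2.62, adjusted p = 0.065, DESeq2 adjusted p = 3.1e-08). The fitted log2 fold changes of Kcnj8 and Myh11 were -0.74 and -2.40, and both were also lowest in replicate 1 among control-labelled hearts. Myh11 had only 10 to 154 counts per heart. It was at 0.604, 2.96 and 4.75 CPM and 0.497, 0.705 and 0.342 CPM, so its groups overlapped. The rest of the list did not share this fall. Pdgfrb and Acta2 also overlapped between groups, with log2 fold changes of -0.16 and -0.11. Tagln and Cnn1 were fitted higher, at 0.62 and 0.48, and Cnn1 showed no overlap. The endothelial list differed by less than the spread between control-labelled hearts. The part of coronary endothelial, pericyte, red cell or other RNA in the Ntn4 result was not tested.

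**Figure D4:**
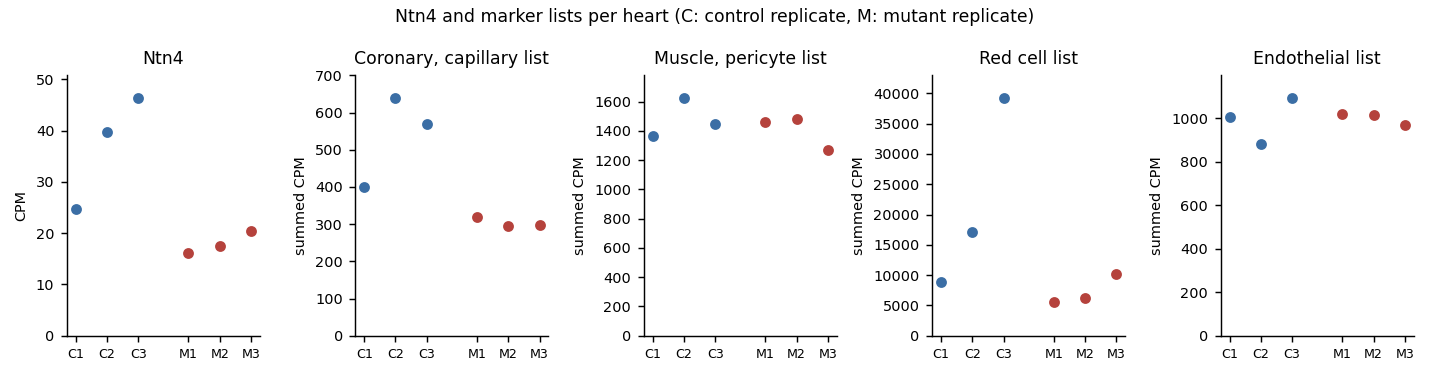
Level of Ntn4 (CPM) and summed levels (CPM) of marker lists for coronary and capillary endothelium, smooth muscle and pericytes, red cells and all endothelium (y axes, each from 0), in each of 3 control (C) and 3 mutant (M) hearts (x axes). Ntn4, at 16.2 to 20.4 CPM in mutant hearts, and the coronary list do not overlap between groups, whereas the other 3 lists do.

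Ntn1 had a fitted fold change of the opposite sign to that of Ntn4. It was at 231, 207 and 233 CPM in control-labelled and 251, 243 and 288 CPM in mutant-labelled hearts, and the groups did not overlap. The log2 fold change was 0.22 (SE 0.09, adjusted p = 0.25). Neither tool called Ntn1 at an adjusted p under 0.05. All 4 Unc5 receptors, which mediate repulsion by netrins, were fitted higher. Unc5c (ENSMUSG00000059921.13, chromosome 3 of GRCm38 from 141465216 to 141834924) was at 6.23, 3.06 and 3.83 CPM in control-labelled and 9.54, 7.9 and 6.53 CPM in mutant-labelled hearts. Every mutant-labelled heart was above every control-labelled heart, though control replicate 1 came close to mutant replicate 3. The means were 4.37 ± 1.65 and 7.99 ± 1.51 CPM (SD, n = 3 each), for a log2 fold change of 0.87 (SE 0.26, interval 0.26 to 1.48, adjusted p = 0.15, DESeq2 adjusted p = 0.024). An antisense gene that shares an exon stretch with Unc5c, Gm15688, had no more than 2 counts in any heart. Unc5b, which is expressed in endothelial tip and arterial cells, was at 137, 128 and 152 CPM in control-labelled and 164, 155 and 164 CPM in mutant-labelled hearts. Its groups did not overlap, with a log2 fold change of 0.21 (interval 0.02 to 0.40, adjusted p = 0.22). For the other tested members, Unc5a and Unc5d, the log2 fold changes were 1.24 and 0.64, neither below an unadjusted p of 0.05. The Unc5a value rested on mutant replicate 1, at 5.42 CPM beside 1.06 and 0.82 CPM in the other mutant-labelled hearts, and without that heart it was -0.17. Unc5a also shares exon sequence with Hk3 on the opposite strand, and whether strand was used in counting is not stated.

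All 11 tested Eph receptors, tyrosine kinases for ephrins except for the kinase-dead Ephb6, were fitted higher. Of them, 5 (45.5%) had an unadjusted p under 0.05, where 9.48% of all tested genes were higher at that p. Epha3 (ENSMUSG00000052504.6, chromosome 16 of GRCm38 from 63543534 to 63864175), a receptor known from atrioventricular cushion mesenchyme, was at 15, 13.9 and 11.2 CPM in control-labelled and 19, 18.8 and 19.7 CPM in mutant-labelled hearts. The mutant-labelled hearts were within 1 CPM of each other and all above the control-labelled hearts. The means were 13.4 ± 1.98 and 19.2 ± 0.45 CPM (SD, n = 3 each), and the log2 fold change was 0.52 (SE 0.12, interval 0.24 to 0.79, adjusted p = 0.099). DESeq2 gave an adjusted p of 0.0086, and edgeR one of 0.039 without control replicate 1. Epha3 kept a positive log2 fold change in each fit that left out 1 heart, between 0.41 and 0.61. Ephb2, which takes part in vessel assembly together with Ephb3, was at 6.2, 4.6 and 6.08 CPM and 9.56, 8.77 and 6.26 CPM. Mutant replicate 3 was only just above the highest control-labelled heart, and the log2 fold change was 0.55 (SE 0.19, adjusted p = 0.19). Epha1 (3.84, 1.87 and 2.72 CPM and 4.76, 4.3 and 3.9 CPM, log2 fold change 0.62, adjusted p = 0.24) did not overlap between the groups. Reads from its neighbour Zyx, which overlaps 2 of its exons on the opposite strand at 166 to 240.5 CPM, may not be told apart from it. Epha5, at under 1 CPM in each heart, was at 0.342, 0.613 and 0.401 CPM and 0.703, 0.705 and 0.855 CPM (log2 fold change 0.74, adjusted p = 0.26).

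Ephb4, by contrast, was at 147, 119 and 155 CPM in control-labelled and 139.7, 145 and 155 CPM in mutant-labelled hearts, and the groups overlapped. Its log2 fold change was 0.07 (interval -0.17 to 0.30, adjusted p = 0.75), and it was -0.04 without control replicate 2. The other 6 tested Eph receptors, Epha2, Epha4, Epha7, Ephb1, Ephb3 and Ephb6, had log2 fold changes between 0.02 and 0.44. Of these, Ephb6 had an unadjusted p under 0.05, and Ephb3 and Ephb6 showed no overlap between the groups.

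Of 7 tested ephrins, the ligands of Eph receptors, 6 were fitted higher and 1 lower. An unadjusted p under 0.05 was reached by 3 that were higher (Efna2, Efna4 and Efnb2), or 42.9%, where 9.48% of all tested genes were higher. Efna2 (ENSMUSG00000003070.6, chromosome 10 of GRCm38 from 80179482 to 80190010), a membrane-anchored A-type ligand, was at 10.2, 8.61 and 7.93 CPM in control-labelled and 12.9, 13.8 and 11.4 CPM in mutant-labelled hearts. The groups did not overlap, and the means were 8.93 ± 1.19 and 12.7 ± 1.23 CPM (SD, n = 3 each). The log2 fold change was 0.51 (SE 0.13, interval 0.21 to 0.81, adjusted p = 0.12, DESeq2 adjusted p = 0.027). Efnb2, the arterial ligand of Ephb4, was at 62.5, 62.6 and 71.3 CPM and 80.5, 73.5 and 72.8 CPM. Its groups were separate by a narrow margin, with control replicate 3 just below mutant replicate 3, and the log2 fold change was 0.21 (interval 0.02 to 0.39, adjusted p = 0.21, DESeq2 adjusted p = 0.24). Efnb1, a B-type ephrin of mesenchyme and endothelium, had levels of 43.7, 45 and 49.4 CPM and 46.6, 51.7 and 54.3 CPM that overlapped (log2 fold change 0.14, adjusted p = 0.39). Efna1, an endothelial ephrin induced by inflammatory cytokines, was at 28.5, 25.4 and 30.8 CPM and 25.4, 27.6 and 28.8 CPM, with overlapping groups (log2 fold change -0.05, adjusted p = 0.78). The other 3 tested ephrins, Efna4, Efna5 and Efnb3, had log2 fold changes between 0.02 and 0.43.

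Within each heart, the log2 ratio of Efnb2 to Ephb4, computed from CPM + 1, was -1.22, -0.92 and -1.11 in control-labelled hearts. It was -0.79, -0.97 and -1.08 in mutant-labelled hearts, so the groups overlapped. The means were -1.08 ± 0.15 and -0.95 ± 0.15 (SD, n = 3 each), and the difference of 0.13 gave p = 0.4 in an exact two-sided permutation test, whose smallest possible p is 0.1. Of 6 arterial endothelial markers, 3 were fitted higher and 3 lower. Their sums ran from 175 to 214 CPM in control-labelled and from 230.3 to 256 CPM in mutant-labelled hearts, a gap that came from Gja5, which trabecular muscle also expresses. Without Gja5 the sums were 71.6, 70.9 and 80.5 CPM and 74.9, 72.8 and 79.5 CPM, and the groups overlapped. Venous markers summed to between 67.2 and 90.7 CPM and between 80.8 and 90.03 CPM. Of these 3 markers, Nr2f2 was at 32.1, 26.1 and 31.5 CPM and 37.1, 37.8 and 33.8 CPM. Its groups did not overlap (log2 fold change 0.28, adjusted p = 0.20). The protein of Nr2f2, COUP-TF2, also marked pericytes in the study. Nt5e and Aplnr, the latter also on the coronary and capillary list, overlapped between groups (log2 fold changes -0.09 and -0.04). The part of these cell types in the Efnb2 and Ephb4 levels was not tested.

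**Figure D5:**
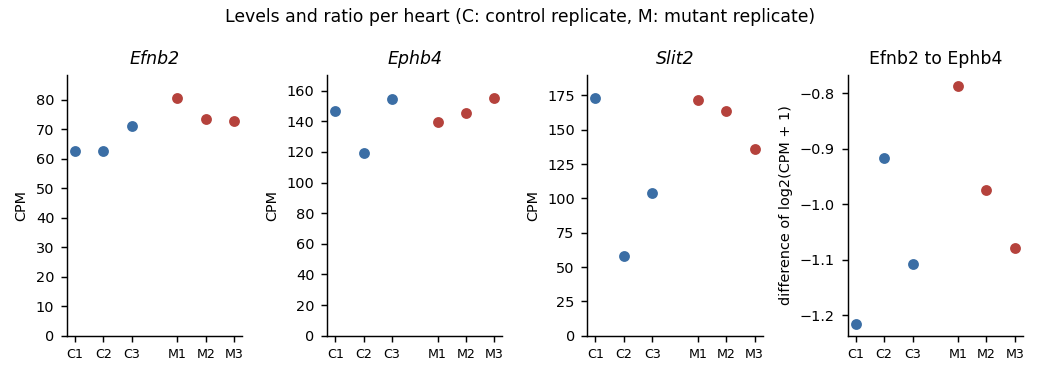
Levels of Efnb2, Ephb4 and Slit2 (CPM, y axes from 0) and the log2 ratio of Efnb2 to Ephb4 (y axis not from 0) in each of 3 control (C) and 3 mutant (M) hearts (x axes). Efnb2 is separate by a narrow margin, Ephb4 and the ratio overlap between groups, and Slit2 spans 57.8 to 173 CPM among the control hearts.

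Of the 9 plexins, the receptors of semaphorins, 6 were fitted higher and 3 lower. Only Plxna3, or 11.1%, had an unadjusted p under 0.05, where 9.48% of all tested genes were higher at that p. Plxna3 (ENSMUSG00000031398.11, chromosome X of GRCm38 from 74329066 to 74344689), a receptor for Sema3f with Nrp2, was at 13.6, 11.7 and 9.63 CPM in control-labelled and 18, 14.5 and 16.6 CPM in mutant-labelled hearts. Its groups did not overlap, and control replicate 1 was the highest of the control-labelled hearts. With means of 11.7 ± 1.99 and 16.3 ± 1.78 CPM (SD, n = 3 each), the log2 fold change was 0.49 (SE 0.15, interval 0.15 to 0.82, adjusted p = 0.15, DESeq2 adjusted p = 0.049). The gene is on the X chromosome, and Y chromosome transcripts were present in control replicates 1 and 2 and mutant replicate 3, so the sexes were not balanced between the groups. The part of sex in the Plxna3 result was not tested. Plxnd1, through which Sema3e repels endothelial cells, was at 319, 245 and 421 CPM and 338, 321 and 356 CPM. Its control-labelled hearts spanned the whole range of the mutant-labelled hearts, and the log2 fold change was 0.04 (interval -0.36 to 0.44, adjusted p = 0.91). Plxna1 and Plxna2, receptors that act with neuropilins in cardiac outflow and neural crest cells, had overlapping groups. Plxna1 was at 62.2, 63.4 and 85 CPM and 70.1, 63.1 and 67.6 CPM, with a log2 fold change of -0.07 (adjusted p = 0.78), and Plxna2 at 41.7, 36.5 and 50.6 CPM and 42, 38 and 41.2 CPM, with one of -0.09 (adjusted p = 0.71). Plxna4 was at 73.5, 60.0 and 83.3 CPM and 91, 80.7 and 71.7 CPM, and Plxnb1, the receptor of Sema4d, at 57.4, 70.2 and 71.3 CPM and 77.1, 65.2 and 72.2 CPM. Both overlapped between groups, with log2 fold changes of 0.17 and 0.11. The other 3 plexins, Plxnb2, Plxnb3 and Plxnc1, had log2 fold changes between -0.16 and 0.37. Plxnc1, a receptor for Sema7a, passed the threshold of edgeR once control replicate 1 was left out (adjusted p = 0.016, log2 fold change 0.61).

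Semaphorins were split, with 9 of 19 tested genes fitted higher and 10 lower, and 2 in each direction at an unadjusted p under 0.05. That was 10.5% of the tested semaphorins each way. Of all tested genes, 9.48% passed that p with a higher fit and 9.98% with a lower fit. Sema6b (ENSMUSG00000001227.9, chromosome 17 of GRCm38 from 56123085 to 56140343), a transmembrane ligand for A plexins, was at 6.59, 6.2 and 9.75 CPM in control-labelled and 4.39, 5.01 and 5.26 CPM in mutant-labelled hearts. All mutant-labelled hearts were below all control-labelled hearts, and control replicate 3 stood above the other two. The means were 7.51 ± 1.95 and 4.89 ± 0.449 CPM (SD, n = 3 each), and the log2 fold change was -0.63 (SE 0.19, interval -1.07 to -0.18, adjusted p = 0.16, DESeq2 adjusted p = 0.049). Sema7a, a membrane-anchored semaphorin that also binds integrins, was not among the genes to be named and is given because edgeR called it without control replicate 1. It was at 9.33, 26.6 and 21.9 CPM and 10.8, 9.92 and 13.3 CPM. Control replicate 1 was below all mutant-labelled hearts but the other control-labelled hearts were above them, so that the log2 fold change of -0.77 (adjusted p = 0.25) became -1.10 without that heart (adjusted p = 0.013).

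Among the secreted class 3 semaphorins, 4 of 7 were fitted higher and 3 lower. Sema3c, a cue for cardiac neural crest cells entering the outflow tract, was at 25.7, 16.9 and 21.8 CPM in control-labelled and 29.5, 30.4 and 24.7 CPM in mutant-labelled hearts. Control replicate 1 overlapped the mutant-labelled hearts and the other two were below them, and the log2 fold change was 0.40 (SE 0.15, interval 0.04 to 0.75, adjusted p = 0.22). Sema3a, a repellent for sympathetic axons in the heart, was at 57, 23.6 and 34.7 CPM and 50.6, 50.4 and 45.2 CPM. Here control replicate 1 was the highest of all 6 hearts, and the log2 fold change was 0.34 with all hearts and 0.74 without that heart (adjusted p = 0.5 and 0.052). Sema3d, which patterns coronary veins and is made in the epicardium, was at 38.3, 30.6 and 30.6 CPM and 41, 38.8 and 34.8 CPM, with overlapping groups (log2 fold change 0.20, adjusted p = 0.34). Sema3e, the ligand of Plxnd1, was low at 2.05, 0.885 and 1.61 CPM and 2.4, 1.25 and 2.36 CPM (log2 fold change 0.40, adjusted p = 0.57). Sema3f and Sema3g, ligands that act through Nrp2, both had control-labelled hearts above and below the mutant-labelled ones. Sema3f was at 20.0, 13.8 and 26.2 CPM and 17.5, 16 and 19.1 CPM (log2 fold change -0.19, adjusted p = 0.62). Sema3g, known from arterial endothelium, was at 6.94, 12.9 and 10.5 CPM and 8.9, 7.76 and 11 CPM (log2 fold change -0.13, adjusted p = 0.77).

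Of the transmembrane semaphorins known from the heart, Sema6d, a ligand of Plxna1 in trabeculation, was the semaphorin with the highest level per length (9.28 CPM per kb). It was at 108, 87.3 and 99.7 CPM in control-labelled and 103, 98.3 and 91.1 CPM in mutant-labelled hearts, and the log2 fold change of -0.01 had an interval of -0.22 to 0.20. Sema6a and Sema4d, ligands of A plexins and of Plxnb1, likewise overlapped between groups. Sema6a was at 20.8, 23.2 and 23.6 CPM and 25.6, 21.2 and 18.3 CPM (log2 fold change -0.05, interval -0.34 to 0.25), and Sema4d at 37.9, 28.2 and 32.9 CPM and 33.7, 35.7 and 36 CPM (log2 fold change 0.09, interval -0.17 to 0.34). Sema4c, a ligand of Plxnb2, was the other semaphorin with an unadjusted p under 0.05 and a higher fit, at 31.6, 23.4 and 29.4 CPM and 38.2, 34.6 and 34.4 CPM, and its groups did not overlap. Its exons overlap those of D430040D24Rik on the opposite strand, which was at about 3 CPM in every heart. The 9 tested semaphorins outside the rule for naming had log2 fold changes between -0.77 for Sema7a and 0.34 for Sema4c.

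For each of the 5 tested Slits and Robos, the group means differed by less than the SD among control-labelled hearts. Slit2, a secreted Robo ligand, was at 173, 57.8 and 104 CPM in control-labelled and 172, 164 and 136 CPM in mutant-labelled hearts. Control replicate 1 was as high as the highest mutant-labelled heart, while control replicates 2 and 3 were below all of them. The log2 fold change was 0.49 (SE 0.33, interval -0.26 to 1.24, adjusted p = 0.42), and 0.96 without control replicate 1 (adjusted p = 0.07). Slit2 and the summed endocardial markers had the same order among control-labelled hearts. The markers summed to 362, 200.3 and 272 CPM there and to between 353 and 391 CPM in mutant-labelled hearts. This order was not particular to them, since macrophage markers shared it (69.4, 49.8 and 58.4 CPM). Within the endocardial list, Cytl1 had the reverse order (2.65, 9.94 and 2.72 CPM). The part of endocardial RNA in the Slit2 values was not tested. Slit3, a Slit known from the diaphragm and heart, was at 17.8, 15.1 and 22.6 CPM and 23, 23.9 and 19.2 CPM (log2 fold change 0.25, adjusted p = 0.38). Robo1, a receptor with a role in cardiac septation, was at 69.2, 40.6 and 66.8 CPM and 68.4, 84.6 and 59.3 CPM, with overlapping groups (log2 fold change 0.27, adjusted p = 0.49). Robo2, a related receptor for Slits, was at 12.1, 8.27 and 7.99 CPM and 11.6, 9.59 and 10.4 CPM (log2 fold change 0.16, adjusted p = 0.63). Robo4, the Robo of endothelial cells, was at 15.1, 18.9 and 21.5 CPM and 16.3, 15.2 and 18.7 CPM and also overlapped between groups (log2 fold change -0.15, adjusted p = 0.59). At an unadjusted p under 0.05, 0 of the 5 tested Slits and Robos were higher or lower with edgeR, and DESeq2 called 0 of them.

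Co-receptors and cytoplasmic partners of the guidance receptors were followed as 47 listed genes, of which 42 were tested. Of these, 23 were fitted higher and 19 lower. An unadjusted p under 0.05 was reached by 6 that were higher and 3 that were lower, and an adjusted p under 0.05 by 0. These shares, 14.3% higher and 7.14% lower, stood beside 9.48% and 9.98% of all tested genes. Nrp2, the neuropilin of venous and lymphatic endothelium and a co-receptor for Sema3f and Sema3g, was at 46.7, 47 and 53.9 CPM in control-labelled and 36.2, 39.1 and 30.1 CPM in mutant-labelled hearts. All mutant-labelled hearts were below all control-labelled hearts, and the means were 49.2 ± 4.09 and 35.1 ± 4.62 CPM (SD, n = 3 each). Its log2 fold change was -0.48 (SE 0.11, interval -0.74 to -0.23, adjusted p = 0.1), and it was the 1 partner that DESeq2 called (adjusted p = 0.007), where 3.5% of all genes were called lower. Nrp1, the co-receptor for Sema3a and VEGF, was at 213, 229.7 and 252 CPM and 242, 229.9 and 214 CPM, and its log2 fold change was -0.02 (interval -0.22 to 0.18).

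Other partners named by the rule were Farp1, an exchange factor bound by A plexins, Srgap3, a Robo-associated GTPase activator, and Dpysl4, a member of the collapsin response mediators. Farp1 was at 71, 64 and 72 CPM and 83.2, 78.3 and 84.3 CPM, with no overlap (log2 fold change 0.25, adjusted p = 0.15). Srgap3 was lower at 4.28, 3.85 and 4.29 CPM and 3.3, 2.4 and 3.01 CPM, also with no overlap (log2 fold change -0.51, adjusted p = 0.19). Dpysl4 was at 1.84, 1.02 and 0.617 CPM and 2.34, 1.97 and 1.98 CPM (log2 fold change 0.85, adjusted p = 0.25). The other 37 tested partners lay between -0.43 and 0.92 on the log2 scale. Markers of neural crest, glial and neuronal cells, which also use these genes, summed to between 10.4 and 10.7 CPM in control-labelled hearts and between 9.47 and 10.6 CPM in mutant-labelled hearts, with Sox10 under 0.4 CPM in each heart.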

How the data were processed

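Whole hearts of 6 embryos were sequenced by the authors, who deposited raw counts per gene. For these, the authors aligned paired 76 bp reads to GRCm38 by STAR (2.4.2a), took genes from GENCODE vM6, and ran summarizeOverlaps. The setting for reads on overlapping genes, and the use of strand, are not given in the sources used here, and 15 guidance genes have exons that overlap another gene, so their counts are uncertain. The deposited table of the authors' own DESeq2 comparison holds a mean normalized signal, log2 fold changes, a Wald score and p-values. Of this table, only the gene symbols were used.

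Counts were fitted with edgeR 4.0.16 (R 4.3.3, limma 3.58.1, filterByExpr with a minimum count of 10 and a minimum total of 15, TMM, quasi-likelihood, condition as the only term, Benjamini-Hochberg over all 17125 genes tested, threshold 0.05). The standard error was the size of the log2 fold change divided by the square root of F. Coordinates and exon lengths came from GENCODE vM21, in which 45229 of 45792 gene identifiers were found, and promoter windows from RefSeq. The steps were tested on simulated counts. Every pair of libraries differed by more than counting noise (the lowest chi-square divided by its degrees of freedom was 19), and none was merged with another. Totals per heart left the spread between hearts (biological coefficient of variation 0.15), rather than counting error, as the limit for most genes. P-values of the fits weigh the difference between groups against the spread between these hearts, which is moderated across genes.

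The guidance genes, partner list, marker lists and tests were chosen with earlier results of these data known. Named with values in every heart were guidance genes known from heart and vessel development, those with an adjusted p under 0.05 in edgeR or DESeq2 or an unadjusted p under 0.01, those without overlap between groups and a log2 fold change of at least 0.5 in size, and partners by the same criteria together with Nrp1 and Nrp2. Others are given by range and count, and any named beside a count was picked after its values were seen. Alternatives were DESeq2 1.42.0, RLE scaling, 2 other filters, thinning to the smallest total, fits without 1 heart and the replicate number as a block.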

Additional observations from a re-analysis of the deposited data

How the results depend on the processing

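Without a filter on low counts, edgeR called 1 guidance gene higher (Epha3) and 1 lower (Ntn4), 1 partner lower and, over all genes, 262 higher and 341 lower. DESeq2 called 4 and 2 guidance genes, 1 partner lower (Nrp2), and 443 and 568 of all genes. Leaving out 1 heart at a time gave 0 to 4 guidance genes called higher and 0 to 2 lower, 4 to 17 higher and 2 to 3 lower at an unadjusted p under 0.05, 3 to 7 and 1 to 3 partners at that p, and 0 to 320 and 0 to 431 of all genes. The largest of the guidance and all-gene counts came without control replicate 1, and without mutant replicate 1 only 4 guidance genes were higher at an unadjusted p under 0.05. RLE scaling, thinning and the stricter filter called 0 guidance genes in either direction and left 13 to 16 higher and 2 to 3 lower at an unadjusted p under 0.05. For the alternatives, the share of all genes at that unadjusted p was not computed. Counts of guidance genes at that p therefore cannot be set against a background there. The median log2 fold change stayed between 0.13 and 0.20 in all alternatives, and the difference in the Efnb2 to Ephb4 log2 ratio between 0.05 and 0.21 when 1 heart was left out.

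Same-numbered hearts did not deviate together (correlations of 0.0093, -0.12 and -0.094), so the numbers were not taken as pairs. With the number as a block, 0 guidance genes were called, 17 with an unadjusted p under 0.05 were higher and 2 lower, and 1 gene was called higher and 13 lower over all genes.

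Of 39 named genes, 28 kept their direction in every alternative, and all reversals came from leaving out 1 heart. Over these fits, the log2 fold change of Ephb4 ran from -0.037 without control replicate 2 to 0.14, Plxnd1 from -0.13 without the same heart to 0.26, and Sema4d from -0.012 without it to 0.20. Sema3g ran from -0.35 to 0.083 without control replicate 2. Without control replicate 3 the sign turned for Efna1 (-0.12 to 0.013), Plxna1 (-0.15 to 0.093), Plxna2 (-0.19 to 0.047), Sema3f (-0.39 to 0.051), Sema6d (0.00079) and Nrp1 (-0.076 to 0.045). Sema6d ran from -0.087 to 0.064 without control replicate 1 and Sema6a from -0.19 to 0.062 without mutant replicate 3, where Sema6d was at 0.042 and Nrp1 at 0.030. The cause was not tested. With 3 hearts per group, the spread between hearts limits every fold change given here.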
